A study of Mus musculus with 6 samples.

Results

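Btk, Cd180, Ikzf1 and Ikzf3, a group of B cell signalling genes and Ikaros transcription factors, were followed across the 6 RNA-seq libraries of the series. They are 4 of the 1722 genes in the authors' deposited table, taken by gene symbol, with Cd3e added as a T cell reference. The table lists only genes that the authors called changed between U14 cells overexpressing FOXP1 and wild-type U14 cells, so the genes were selected on the authors' fold and q-value of this contrast, and their differences are given as a description with no test.

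The libraries are poly(A)-selected RNA of U14, a mouse cervical carcinoma line. The overexpression group has the genotype OEFOXP1 and consists of 3 libraries, called here FOXP1-overexpression libraries 2, 3 and 4 after the deposited columns; no sample title carries the number 4. The wild-type group consists of 3 libraries, numbered 1, 2 and 3. The labels give no vector, promoter, clone, culture or host for either group, nor whether separate cultures were used, so the spread between libraries may be technical.

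B cells sense antigen through a receptor whose CD79 chains recruit the tyrosine kinase Syk, which in turn brings the Tec family kinase Btk to phospholipase C gamma 2 through the adaptor Blnk. Cd180, also called RP105, is a surface protein with leucine-rich repeats related to Toll-like receptor 4 that pairs with MD-1 (the product of Ly86) and modulates lipopolysaccharide responses in B cells, macrophages and dendritic cells. Ikzf1 (Ikaros) and Ikzf3 (Aiolos) are zinc finger proteins that bind DNA as dimers and work with chromatin remodellers; Ikaros is made throughout the lymphoid lineage and Aiolos mainly in maturing B cells and in subsets of T and natural killer cells. Btk is made in B cells and myeloid cells and is largely missing from T cells, whereas Cd3e is a chain of the T cell receptor complex. None of these genes is a textbook product of epithelial carcinoma cells.

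The FPKM values (fragments scaled to gene length and library total) rest on 16824351 to 20410060 fragments per FOXP1-overexpression library and 17994311 to 18668395 per wild-type library. These totals were not read from the submitters' records. They were worked out from the expression values, with gene lengths taken as whole bases. Wild-type library 1 stood apart: among the 1505 genes listed as higher, it was the lowest wild-type library for 62.9%, and it was the lowest for each of the 4 genes and for Cd3e. Of the 10 epithelial markers, Krt18 and Elf3 were listed as lower and Epcam as higher, and the other 7 were not listed. Foxp1 was not analysed here, and the group labels were therefore not checked against its level.

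All 4 genes were higher in FOXP1-overexpression libraries, by 2.18-fold for Cd180, 2.36-fold for Btk, 2.53-fold for Ikzf1 and 3.45-fold for Ikzf3 in the authors' deposited table. The T cell reference Cd3e was 3.78-fold higher there. For comparison, 9.59% of the 15689 genes the authors tested were listed as higher and 1.38% as lower; since listing chose the 4 genes, nothing is read from their being 4 of 4. In each of the 4 the groups did not overlap, as in 1389 (80.7%) of the 1722 listed genes in the same direction. That base includes 217 genes listed as lower, and 1505 genes were listed as higher. In bulk RNA, more cells of a type and more RNA per cell cannot be told apart.

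Btk (Entrez 12229), the kinase that couples the B cell receptor to calcium signalling, was at 15.6, 9.57 and 10.4 FPKM in FOXP1-overexpression libraries 2, 3 and 4, against 3.12, 5.32 and 6.07 FPKM in wild-type libraries 1, 2 and 3. Library 2 was the high one in the overexpression group and library 1 the low one in wild type. The means were 11.9 ± 3.29 FPKM in FOXP1 overexpression and 4.84 ± 1.53 FPKM in wild type (SD, n = 3 each), a log2 fold of 1.24 by the authors' deposited table.

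Cd180 (Entrez 17079), the Toll-like receptor relative, was the most abundant of the 4 by mean FPKM in both groups. It was at 23.5, 17.0 and 42.9 FPKM in FOXP1-overexpression libraries 2, 3 and 4, and at 7.64, 13.2 and 15.4 FPKM in wild-type libraries 1, 2 and 3. The groups were separated by little: the lowest overexpression library stood 1.11 times above the highest wild-type library, a gap of 1.58 times for Btk, 1.84 for Ikzf1 and 1.73 for Ikzf3. Its means were 27.8 ± 13.4 FPKM in FOXP1 overexpression and 12.1 ± 3.99 FPKM in wild type (SD, n = 3 each), a log2 fold of 1.12 by the authors' deposited table. Of the 4, it lay nearest to the authors' 2-fold threshold.

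Ikzf1 (Entrez 22778), which encodes Ikaros, was at 17.7, 13.7 and 17.0 FPKM in FOXP1-overexpression libraries 2, 3 and 4, against 4.22, 7.47 and 6.65 FPKM in wild-type libraries 1, 2 and 3. Its overexpression libraries were the closest to one another, with the highest 1.29 times the lowest, compared with 1.63 for Btk, 1.91 for Ikzf3 and 2.52 for Cd180. The means were 16.2 ± 2.14 FPKM in FOXP1 overexpression and 6.11 ± 1.69 FPKM in wild type (SD, n = 3 each), and the authors' deposited table gives a log2 fold of 1.34.

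Ikzf3 (Entrez 22780), which encodes Aiolos, had the lowest level and the largest fold of the 4. It was at 6.95, 4.54 and 8.69 FPKM in FOXP1-overexpression libraries 2, 3 and 4, and at 0.888, 2.62 and 2.04 FPKM in wild-type libraries 1, 2 and 3. Wild-type library 1 was less than the others by more than the difference between them, and the highest wild-type library was 2.96 times the lowest. The means were 6.73 ± 2.08 FPKM in FOXP1 overexpression and 1.85 ± 0.883 FPKM in wild type (SD, n = 3 each), a log2 fold of 1.79 by the authors' deposited table. Its low FPKM came with a long gene model, worked out from the expression values as 8636 bases. The rebuilt read counts of Ikzf3 were still 1010, 800 and 1331 in the overexpression libraries and 143, 423 and 317 in wild type. Over all 4 genes the counts were 533 to 1911 per library in FOXP1 overexpression and 143 to 882 in wild type.

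Cd3e (Entrez 12501) was at 19.9, 17.6 and 25.8 FPKM in FOXP1-overexpression libraries 2, 3 and 4, against 3.88, 6.98 and 5.08 FPKM in wild-type libraries 1, 2 and 3. T cell transcripts were thus present in both groups, at a level above that of Btk and Ikzf3 in every overexpression library.

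**Figure D1:**
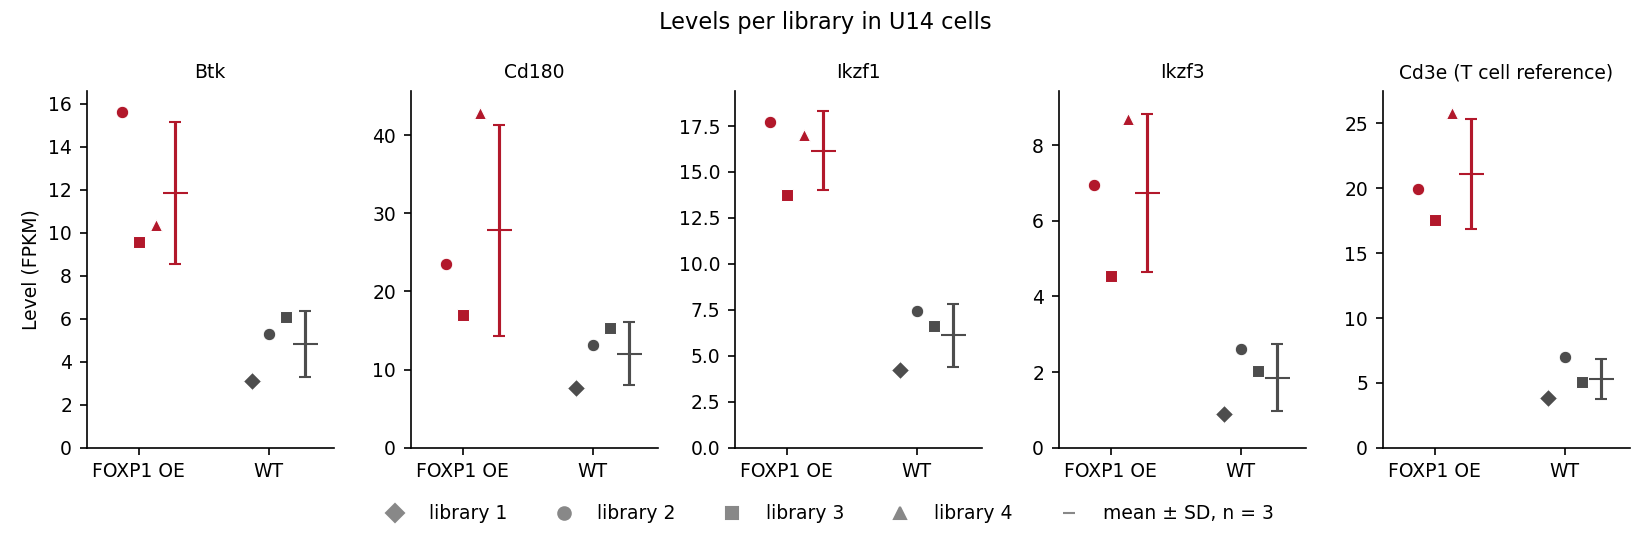
Level in FPKM of Btk, Cd180, Ikzf1, Ikzf3 and Cd3e in each library, FOXP1 overexpression (OE, red) left of wild type (WT, grey); symbols give the library number and bars the mean ± SD of 3 libraries. Every overexpression library lies above every wild-type library in each panel, and for Cd180 the gap is narrow, with 17.0 FPKM in overexpression library 3 against 15.4 FPKM in wild-type library 3.

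In FOXP1 overexpression the mean levels ran from Cd180 through Cd3e, Ikzf1 and Btk to Ikzf3. Neighbours in that order overlapped in their ranges, except that Ikzf3 (at most 8.69 FPKM) lay below Btk (at least 9.57 FPKM). In wild type the order was Cd180, Ikzf1, Cd3e, Btk and Ikzf3. There the ranges of Ikzf1, Cd3e and Btk overlapped, and those of Cd180 and Ikzf3 lay above and below them, with 7.64 to 15.4 FPKM for Cd180 and 0.888 to 2.62 FPKM for Ikzf3. In wild-type library 1 Cd180, at 7.64 FPKM, was only just above the 7.47 FPKM of Ikzf1 in wild-type library 2.

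Among the 1505 genes listed as higher, for which the authors' deposited table gives a median log2 fold of 1.46, the fold of Cd180 was larger than that of 15.3%, Btk 28.4%, Ikzf1 39.1% and Ikzf3 72.5%. For Cd3e the share was 78.3%. The rises of Cd180, Btk and Ikzf1 were therefore under the median of the listed rises, and that of Ikzf3 was above it. On the scale of log2(FPKM + 1) the libraries of a group also differed more for these genes than for the median listed gene, except for Ikzf1 in FOXP1 overexpression. The added 1 FPKM shrinks the spread of low genes. The median gene listed as higher had a mean of only 3.17 FPKM in FOXP1 overexpression and 1.07 FPKM in wild type, so genes of unlike level are compared. In wild type the SD of log2(FPKM + 1) was 0.37 for Ikzf1, 0.41 for Btk, 0.48 for Cd180 and 0.49 for Ikzf3, beside a median of 0.16 over the listed genes. In FOXP1 overexpression it was 0.19, 0.35, 0.65 and 0.41 in the same gene order, beside a median of 0.24.

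All 4 folds were smaller without wild-type library 1, and for 2 of them, Btk and Cd180, the fold then fell below the threshold. In voom, limma's count method, run on the rebuilt counts, the log2 fold without wild-type library 1 was 0.96 for Btk, 0.80 for Cd180, 1.13 for Ikzf1 and 1.42 for Ikzf3. Without FOXP1-overexpression library 4 that of Cd180 was 0.76. With all 6 libraries the voom values were 1.25 for Btk, 1.09 for Cd180, 1.37 for Ikzf1 and 1.88 for Ikzf3. The listed genes as a whole were shifted up by 0.81 in median log2(FPKM + 1), and relative to that shift Btk stood 0.34 higher, Cd180 0.28, Ikzf1 0.49, Ikzf3 0.65 and Cd3e 1.01, so that none of the 4 passed the fold threshold after centring.

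The number of the 4 genes past an adjusted p under 0.05 and 2-fold is given here beside the share of the tested listed genes that each setting called higher, and nothing is read from it. Genes listed as lower are in the base of each share. Voom on all 6 libraries called 4, with 81.6% of genes. It called 2 without wild-type library 1 (58.8%), 4 without wild-type library 2 (71.4%) and 4 without wild-type library 3 (75.4%). Without FOXP1-overexpression library 2 it called 4 (75.5%), without library 3 it called 4 (80.3%) and without library 4 it called 3 (73.3%). Adjusted over every gene tested it called 2 (45.1%). On FPKM, limma's trend fit called 4 (36.5%), 4 with the pseudocount set to 0.1 (79.1%), 4 after filtering at 1 FPKM (47.3%), 0 after median centring (1.51%, with 2 of the 4 at an unadjusted p under 0.05) and 1 with the replicate block (20.6%), which was Ikzf1.

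Promoter sequences were looked up because 2 of the 4 genes encode DNA-binding factors. The 4 were taken from the listed genes, of which 87.4% were higher, so nothing is read from their being higher together. RefSeq promoter entries (build GRCm38.p6) matched 3 of the 4 genes; Ikzf3 had none. The 250 bases before the start are printed 5′ to 3′ along the gene's strand in lower case, and capitals mark a motif.
Btk, chrX:134583141-134583390, minus strand: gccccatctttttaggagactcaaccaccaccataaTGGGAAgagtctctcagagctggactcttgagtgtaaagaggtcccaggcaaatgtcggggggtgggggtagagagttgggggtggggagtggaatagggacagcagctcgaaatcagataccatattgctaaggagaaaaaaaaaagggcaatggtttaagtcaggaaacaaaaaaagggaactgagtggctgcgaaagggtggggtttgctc
Cd180, first of 2 starts, chr13:102693297-102693546, plus strand: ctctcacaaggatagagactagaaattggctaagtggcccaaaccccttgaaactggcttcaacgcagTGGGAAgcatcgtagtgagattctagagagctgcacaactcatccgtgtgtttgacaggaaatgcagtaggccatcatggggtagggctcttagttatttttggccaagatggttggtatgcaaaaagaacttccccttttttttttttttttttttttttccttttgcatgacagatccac
Ikzf1, first of 2 starts, chr11:11685675-11685924, plus strand: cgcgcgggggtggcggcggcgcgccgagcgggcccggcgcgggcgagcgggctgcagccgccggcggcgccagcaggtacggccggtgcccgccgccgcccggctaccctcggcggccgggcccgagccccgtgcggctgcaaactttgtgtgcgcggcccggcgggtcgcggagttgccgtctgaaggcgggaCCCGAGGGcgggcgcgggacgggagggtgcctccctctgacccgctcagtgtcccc
The motifs searched, on both strands, were an Ikaros core TGGGAA, a PU.1 and Spi-B core GAGGAAGT, an octamer ATGCAAAT, a forkhead core TGTTTAC, a Runx core TGTGGT and an EBF1 core CCCNNGGG. None of these motifs overlapped another in the windows printed. The Ikaros core was found at 214 bases before the start of Btk and at 182 bases before the first start of Cd180, in both on the gene's own strand. It occurs in 21.6% of the 32851 promoter windows of this length. The first Ikzf1 window, which is 82.0% G and C against a median of 52.4% over all windows, holds an EBF1 core at 56 bases before the start, a motif found in 11.8% of windows. The second Ikzf1 window held none of the 6 motifs. The forkhead core, the kind of motif FOXP1 recognises, is in 3.17% of windows and was not among the letters of any window of the 3 genes. A match is a description of letters and not of binding.

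Measured against Cd3e in the same library, Btk, Cd180 and Ikzf1 had a lower mean in FOXP1 overexpression than in wild type, Cd3e having the larger rise, and Ikzf3 differed by less than the spread between libraries. The log2 ratio of Ikzf1 to Cd3e was -0.17, -0.36 and -0.60 in FOXP1-overexpression libraries 2, 3 and 4, and 0.12, 0.10 and 0.39 in wild-type libraries 1, 2 and 3. That of Cd180 was 0.24, -0.05 and 0.73 in overexpression libraries 2, 3 and 4, against 0.98, 0.91 and 1.60 in wild-type libraries 1, 2 and 3. For these 2 genes the groups did not overlap, as was so in the same direction for 27.2% of the 1464 genes listed as higher that were above 0 in every library.

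The log2 ratio of Btk to Cd3e was -0.35, -0.88 and -1.32 in overexpression libraries 2, 3 and 4 and -0.31, -0.39 and 0.26 in wild-type libraries 1, 2 and 3, and the groups overlapped. The groups overlapped for Ikzf3 too, whose log2 ratio was -1.52, -1.95 and -1.57 in overexpression libraries 2, 3 and 4 and -2.13, -1.41 and -1.32 in wild-type libraries 1, 2 and 3. The mean log2 ratio in FOXP1 overexpression minus that in wild type was -0.70 for Btk, -0.85 for Cd180, -0.58 for Ikzf1 and -0.06 for Ikzf3. With the mean of all 18 listed T cell markers in place of Cd3e these differences were -0.59, -0.74, -0.46 and 0.05. Against that mean the groups still did not overlap for Ikzf1, beside 23.4% of the 1464 genes, but they overlapped for Cd180, at 1.76 in overexpression library 4 against 1.74 in wild-type library 2. With 1 FPKM added to both genes before the ratio to Cd3e, the Ikzf3 groups no longer overlapped and the difference was -0.37, a scale on which 70.2% of the 1464 genes were lower without overlap.

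**Figure D2:**
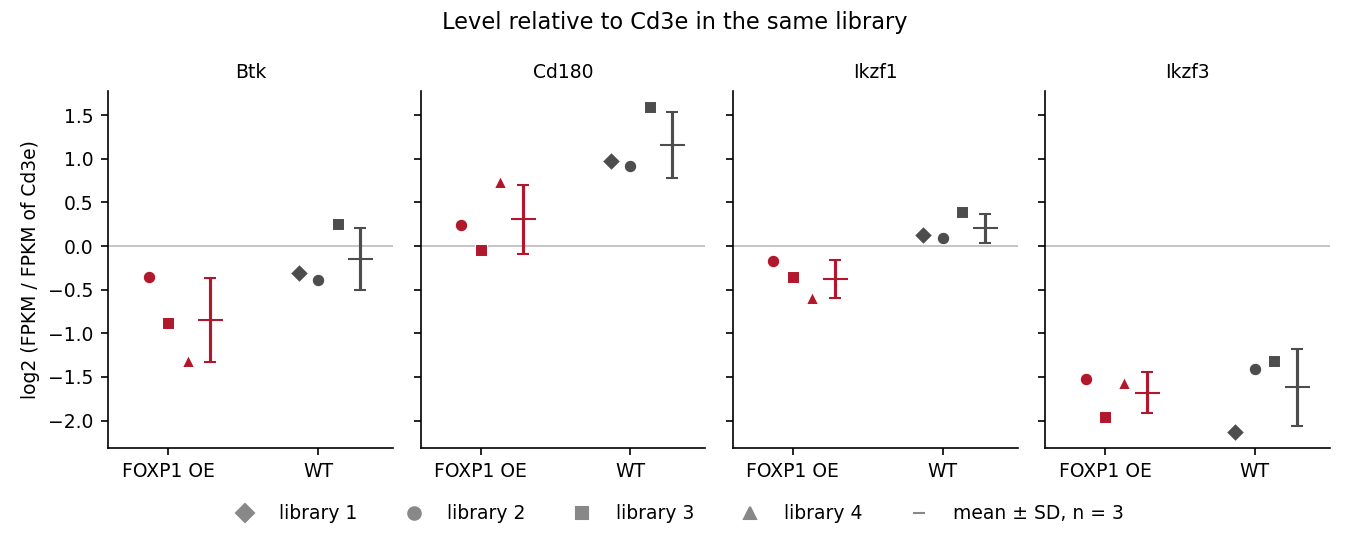
Log2 ratio of the FPKM of each gene to that of Cd3e in the same library, FOXP1 overexpression (OE, red) left of wild type (WT, grey), with bars for the mean ± SD of 3 libraries. Ikzf1 and Cd180 lie lower in every overexpression library than in any wild-type library, Btk overlaps at -0.35 in overexpression library 2, and Ikzf3 overlaps throughout.

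The 4 genes did not share one order of the overexpression libraries. Btk and Ikzf1 were highest in library 2, Cd180 and Ikzf3 in library 4, and all 4 were lowest in library 3. The listed B cell markers other than Cd180 summed to 414, 157.5 and 188 FPKM in overexpression libraries 2, 3 and 4, and to 41.1, 73.3 and 56.1 FPKM in wild-type libraries 1, 2 and 3. Among overexpression libraries Btk was thus highest in the one with the largest sum, whereas Cd180, itself a B cell marker, was highest in library 4. In wild type Btk was highest in library 3, at 6.07 FPKM, and the sum in library 2. The median over the listed B cell markers, Cd180 included, was 13.1, 7.97 and 4.73 FPKM in overexpression libraries 2, 3 and 4. That order differs from the order of Btk, which was lowest in library 3. The 4 genes were also set against the mean log2 level of the 15 listed B cell markers other than Cd180. On that scale Cd180 stood at 1.15, 1.42 and 3.18 in overexpression libraries 2, 3 and 4. In wild-type libraries 1, 2 and 3 it stood at 2.93, 2.48 and 3.13, and the groups overlapped. Btk stood at 0.57, 0.59 and 1.13 in overexpression libraries 2, 3 and 4 and at 1.64, 1.17 and 1.79 in wild-type libraries 1, 2 and 3 on the same scale. It was the only one of the 4 whose groups did not overlap there, with a difference of -0.77, as in 6.15% of the 1464 genes in that direction.

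Within wild type the ratio of Btk to Cd180 was nearly constant, at 0.409, 0.404 and 0.395 in libraries 1, 2 and 3, while in overexpression libraries 2, 3 and 4 it was 0.666, 0.562 and 0.241. The ratio of Ikzf1 to Ikzf3 in FPKM was 2.55, 3.03 and 1.96 in overexpression libraries 2, 3 and 4, and 4.75, 2.85 and 3.26 in wild-type libraries 1, 2 and 3. The groups overlapped in both ratios.

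**Figure D3:**
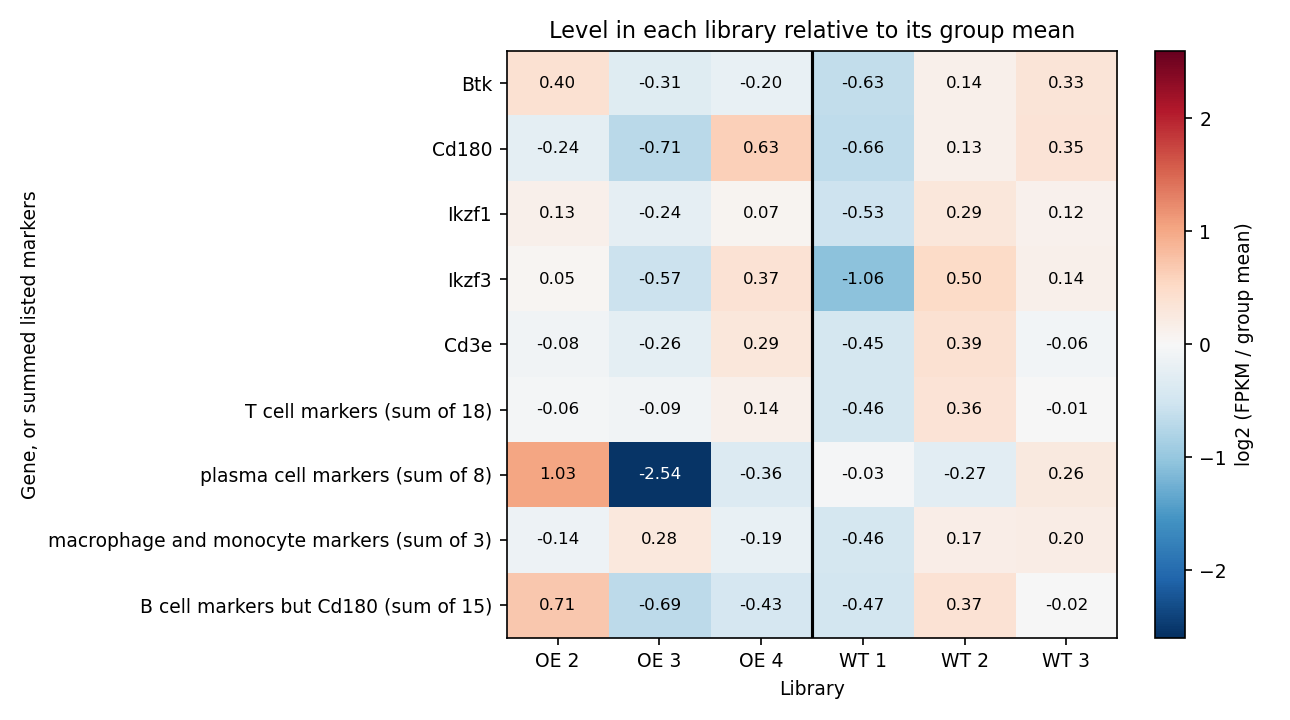
Log2 of the level in each library over the mean of its own group, for the 4 genes, Cd3e and the summed FPKM of listed cell type markers (colour and printed value), with FOXP1-overexpression libraries (OE) left of wild-type libraries (WT). Wild-type library 1 is the lowest of its group in every row but that of the plasma cell markers, where wild-type library 2 is lowest at -0.27, and the plasma cell markers range most between overexpression libraries, from 1.03 in library 2 to -2.54 in library 3.

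The genes whose pattern within the groups was most like each of the 4 were taken from the other 1333 listed genes with a mean of at least 1 FPKM in the higher group. Likeness was the Pearson correlation of deviations of log2(FPKM + 1) from the group means over the 6 libraries, which share depth and composition with the gene compared, and it is a description. The genes named are the 3 best of 1333 over only 6 libraries, and no background for such a choice was computed. Nothing is therefore read from the height of the values or from what the genes do. For Btk these were Syk, the kinase next to it in B cell receptor signalling (0.993), Pik3r5, a regulatory subunit of phosphoinositide 3-kinase gamma (0.985), and Gpr18, a G protein-coupled receptor (0.983). For Cd180 they were the interferon-induced GTPase gene Gbp5 (0.995), Ttyh3 (0.993) and Ap5b1 (0.992). For Ikzf1 they were the adaptor gene Lime1 (0.998), Arap2 (0.996) and Itgb7 (0.994), the beta 7 integrin of gut-homing lymphocytes. For Ikzf3 they were Fcho1 (0.9998), Pld3 (0.995) and Csf2rb2 (0.992), a receptor chain for interleukin 3.

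Many genes that act with Btk in B cell receptor signalling were also listed as higher. Of the 36 genes of that list, 17 were higher, none lower and 19 not listed, against 9.59% of all tested genes listed as higher. Btk is among the 17 and was chosen by listing, so nothing is read from its part in this count. By the authors' deposited table the 17 had a median log2 fold of 1.49, close to the 1.46 of all genes listed as higher. The groups did not overlap in any of the 17, beside 1389 (80.7%) of all 1722 listed genes, of which 1505 were listed as higher. Syk, which acts just above Btk, averaged 18.6 ± 4.99 FPKM in FOXP1 overexpression and 6.38 ± 1.96 FPKM in wild type (SD, n = 3 each). Nfatc1, a calcium-activated transcription factor, averaged 8.90 ± 1.37 FPKM in FOXP1 overexpression and 3.20 ± 0.611 FPKM in wild type. Cd81, part of the B cell coreceptor, averaged 73.0 ± 10.9 FPKM in FOXP1 overexpression and 31.9 ± 1.31 FPKM in wild type.

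The list also held Rac2, a GTPase of blood cells, with a log2 fold of 1.10, and the Src family kinase gene Fyn, with 1.01. These and many other members are made in other leukocytes as well. Of the members largely restricted to B cells, Cd79a, Cd79b and Blk, picked here after their values were seen, had larger folds than Btk. The receptor chain genes Cd79a and Cd79b had log2 folds of 2.13 and 2.23 and the Src family kinase gene Blk had 2.65 in the authors' deposited table. Cr2 and Cd72, which are also B cell markers of this list, were not listed, and their values were not analysed. Cd79a spread widely between overexpression libraries 2, 3 and 4, at 109, 34.4 and 44.3 FPKM, against 9.58, 18.8 and 13.1 FPKM in wild-type libraries 1, 2 and 3. In voom without wild-type library 1, 10 of the 17 were called, beside 1013 (58.8%) of all 1722 listed genes, of which 1505 were listed as higher.

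**Figure D4:**
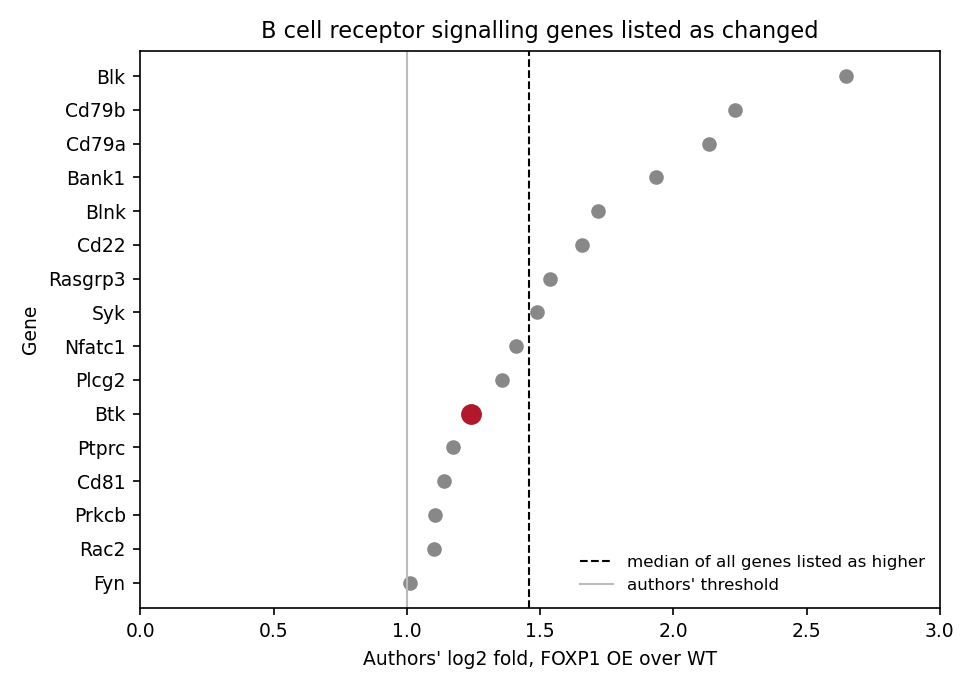
Authors' log2 fold of FOXP1 overexpression (OE) over wild type (WT) for 16 of the 17 listed genes of the B cell receptor signalling list, with Btk in red; the solid line is the authors' threshold of 1 and the dashed line the median of 1.46 over all genes listed as higher. Btk, at 1.24, is in the lower part of the list, and Blk, at 2.65, is at its top.

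Of the 5 Ikaros family genes 3 were listed, all higher, beside 9.59% of all tested genes listed as higher. Ikzf1 and Ikzf3 are among the 4 genes that listing chose, so nothing is read from their part in this count. The third was Ikzf2, which encodes Helios, a factor of regulatory T cells, at 1.33 ± 0.283 FPKM in FOXP1 overexpression and 0.459 ± 0.114 FPKM in wild type (SD, n = 3 each), with a log2 fold of 1.48 by the authors' deposited table. After median centring its direction turned, to -0.13, a scale on which genes of low FPKM lose most of their fold. Of 16 subunits of the NuRD and corepressor complexes with which Ikaros proteins associate, none was listed in either direction. Over all tested genes 9.59% were listed as higher and 1.38% as lower, so nothing is read from this count. The values of genes not listed were not analysed here.

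Of 27 genes of RP105 and Toll-like receptor signalling 5 were higher, Cd180 among them, none lower and 22 not listed, beside 9.59% of all tested genes listed as higher. Listing chose Cd180, so nothing is read from its part in this count. The authors' deposited table gives the 5 a median log2 fold of 1.12. Ly86, whose product pairs with Cd180, and Tlr4 were not listed. Unc93b1, which carries Toll-like receptors to endosomes, averaged 168 ± 11.3 FPKM in FOXP1 overexpression and 78.6 ± 16.8 FPKM in wild type (SD, n = 3 each), and the endosomal receptor gene Tlr8 averaged 13.5 ± 1.16 FPKM in FOXP1 overexpression and 6.27 ± 1.85 FPKM in wild type. The adaptor gene Ticam2 and Tlr11 had log2 folds of 1.29 and 2.16. In voom without wild-type library 1, 2 of the 5 were called, beside 1013 (58.8%) of all 1722 listed genes, of which 1505 were listed as higher.

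Of 16 transcription factors of the B lineage 9 were higher and none lower, beside the same 9.59%, and the authors' deposited table gives the 9 a median log2 fold of 1.75. Pou2af1, a coactivator of octamer factors in B cells, averaged 37.8 ± 22.9 FPKM in FOXP1 overexpression and 8.99 ± 2.01 FPKM in wild type (SD, n = 3 each). Spib, an ETS factor of B cells and plasmacytoid dendritic cells, averaged 6.59 ± 2.40 FPKM in FOXP1 overexpression and 1.75 ± 0.895 FPKM in wild type. Ebf1, which sets B cell identity and is also made in stromal cells, was low, at 0.534 ± 0.105 FPKM in FOXP1 overexpression and 0.208 ± 0.0450 FPKM in wild type, and turned to -0.46 after median centring. Xbp1, the secretory factor of plasma cells, had a log2 fold of 1.70 by the authors' deposited table. It was at 404, 96.7 and 271 FPKM in overexpression libraries 2, 3 and 4, against 71.8, 69.6 and 86.4 FPKM in wild-type libraries 1, 2 and 3. Its voom log2 fold was 1.47 with all 6 libraries, 1.01 without FOXP1-overexpression library 2 and 2.05 without library 3. In voom without wild-type library 1, 5 of the 9 were called, beside 1013 (58.8%) of all 1722 listed genes, of which 1505 were listed as higher.

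**Figure D5:**
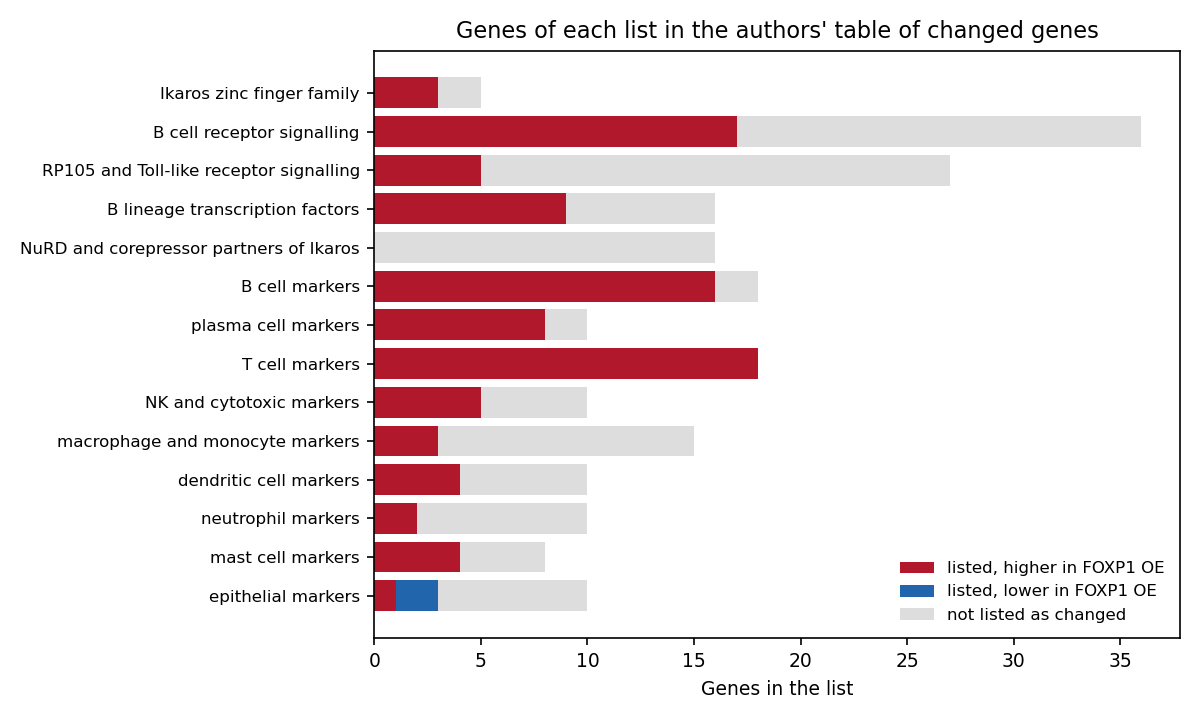
Number of genes of each of 5 pathway lists and 9 cell type marker lists that the authors' table lists as higher (red) or lower (blue) in FOXP1 overexpression (OE), and not listed as changed (grey). All 18 T cell markers and 16 of 18 B cell markers are listed as higher, 17 of 36 genes of B cell receptor signalling, and none of the 16 corepressor partners of Ikaros. Over all tested genes 9.59% were listed as higher and 1.38% as lower.

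Markers of B, T and plasma cells were mostly listed as higher, like the 4 genes. Cd180 is itself among the B cell markers, and nothing is read from its part in their count. Listed as higher were 16 of 18 B cell, 18 of 18 T cell, 8 of 10 plasma cell, 5 of 10 natural killer and cytotoxic, 4 of 10 dendritic cell, 3 of 15 macrophage and monocyte, 4 of 8 mast cell and 2 of 10 neutrophil markers, and none of these lists had a member listed as lower. Over all tested genes 9.59% were listed as higher and 1.38% as lower. The listed T cell markers summed to 307 to 358 FPKM in FOXP1 overexpression and 68.0 to 120 FPKM in wild type. The listed plasma cell markers summed to 360 to 4307 FPKM in overexpression and 256.5 to 371 FPKM in wild type. The listed macrophage markers summed to 5482 to 7592 FPKM in overexpression and 1052 to 1655 FPKM in wild type. Every marker in these sums was listed as higher, so the higher sums in overexpression follow from that selection and nothing is read from them. Most of the macrophage sum was Lyz2, at 5093 to 7344 FPKM in overexpression and 947 to 1484 FPKM in wild type. Most of the plasma cell sum was Jchain, at 213 to 2997 FPKM in overexpression and 146 to 218 FPKM in wild type. No listed marker of any of these lists was at 0 in any library. The part of such cells in the levels of Btk, Cd180, Ikzf1 and Ikzf3 was not tested.

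In the annotation deposited with the table, Btk is one of 17 listed genes of the KEGG B cell receptor signalling pathway, all 17 of them higher. Btk and Cd180 share the term innate immune response with 70 listed genes in all, of which 67 were higher and 3 lower. Ikzf1 and Ikzf3 belong to the zf-C2H2 family, with 58 listed genes, of which 57 were higher and 1 lower. Of all listed genes 87.4% were higher, and nothing is read from these shares.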

How the data were processed

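Poly(A)-selected RNA of 3 FOXP1-overexpression and 3 wild-type U14 libraries was sequenced as paired ends. Per the submitters' processing notes, Trimmomatic, HISAT2 and DESeq were used, with no versions; the build they name, hg19, is human although the genes are mouse, so no gene coordinates are taken from it, and for the read counter the sources used here give no name. The authors deposited 1 table of genes with q under 0.05 and a fold of at least 2. Its expression values, which the header leaves without a unit, are FPKM made by the authors, judged from the numbers: read counts were rebuilt from them together with the group means, and these were whole numbers in 100.0% of 10332 cases, to a tolerance of 0.01. Per the file headers, the authors' normalised signal is a DESeq2 group mean of counts over size factors, and the authors' fold ratio, log2 fold, p-value and q-value stand beside it; q over p gave 15689 genes tested.

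From these, levels, ratios and list counts were computed in Python 3.11.15 (pandas 2.3.3). Limma 3.58.1 in R 4.3.3, tested on simulated data, gave alternatives, adjusted by Benjamini-Hochberg among the listed genes: a trend fit on log2(FPKM + 1), pseudocount 0.1, a filter of 1 FPKM, median centring, a replicate block, and voom on rebuilt counts, the last also without each library in turn and adjusted over all genes tested. The plan had assumed raw counts of all genes as one possibility; with a table of changed genes the authors' calls were used. The rule for named genes takes the 4 genes and Cd3e, up to 4 genes of smallest q per pathway list (all if fewer than 3 are listed), and the 3 most alike genes per member; other names were chosen after values were seen. Some genes of the lists are not reported here by name. The members and lists were chosen with earlier results of these data known. Intervals of counting error are not given. The spread between libraries exceeds them for the levels of the 4 genes, but not for the ratio of Btk to Cd180 in wild type.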

Additional observations from a re-analysis of the deposited data

How the results depend on the processing

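Under median centring, which subtracts a median taken over listed genes only, the log2 difference was 0.34 for Btk, 0.28 for Cd180, 0.49 for Ikzf1 and 0.65 for Ikzf3, and 0 of the 4 passed both thresholds; Ikzf2 (-0.13) and Ebf1 (-0.46) changed sign. In that limma fit 0 genes were called in the Ikaros, B cell receptor, Toll-like receptor, B lineage factor and B cell marker lists (2, 6, 0, 3 and 8 at an unadjusted p under 0.05), and 4 T cell markers were called. The replicate number pairs only libraries 2 and 3, whose same-numbered deviations correlated at 0.02 and 0.08 over 1722 genes. The labels do not say whether same-numbered libraries were prepared together, and these correlations cannot decide it. With the replicate block on those 4 libraries the log2 difference was 0.99 for Btk, 0.46 for Cd180 and 0.9996 for Ikzf3, all short of a threshold, and 1 member was called. The block gave 1 called gene in the Ikaros list, 9 of B cell receptor signalling, 0 of Toll-like receptor signalling (4 at an unadjusted p under 0.05), 1 B lineage factor and 8 B cell markers, with 355 genes called higher in all.

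With voom adjusted over all genes tested, Btk (1.25) and Cd180 (1.09) kept their folds but not their calls, so 2 members, 3 B lineage factors and 10 B cell markers were called. Limma's trend fit called 4 B lineage factors with or without the filter of 1 FPKM, and all 4 members. Without wild-type library 1 the voom log2 fold was 0.80 for Cd180. In voom with single libraries left out, the log2 fold was 0.96 to 1.43 for Btk, 0.76 to 1.38 for Cd180, 1.13 to 1.55 for Ikzf1 and 1.42 to 2.21 for Ikzf3, and 2 to 4 members were called. Those fits called 10 to 17 genes of B cell receptor signalling, 2 to 5 of Toll-like receptor signalling and 5 to 9 B lineage factors. The cause of these changes was not tested.

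The difference in log2 ratio to Cd3e, with single libraries left out, was -0.95 to -0.46 for Btk, -1.07 to -0.64 for Cd180 and -0.68 to -0.46 for Ikzf1; for Ikzf3 it was -0.32 to 0.09, so its sign was not stable. Genes that did not pass the authors' thresholds were not analysed here.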
